A study of Mus musculus with 64 samples.

Results

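The centromere-proximal ends of the mouse autosomes were examined in CUT&RUN peak lists of splenic CD23+ B cells. An end was taken as positions 3000000 to 8000000 of each of chromosomes 1 to 19 in mm10, a window of 5 Mb, and a member was any peak that overlapped a window in any list of the 6 antibodies. The windows span 95 Mb in all, and 33830 of 1084452 peaks in 61 lists overlapped them. Mouse chromosomes have their centromere at the end where numbering starts. No peak began before position 3000000, and the first peak of an autosome lay between 3.0 Mb on chromosomes 3 and 18 and 4.0 Mb on chromosome 14, so the windows are the first stretch of each arm that the lists cover. The pericentromeric satellite repeats themselves lie before that point and were not measured.

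The cells came from female F1 mus x cast mice, bred from C57BL/6 mothers heterozygous for an Xist deletion and M. m. castaneous fathers, and every group shares this cross. Cells were left unstimulated (0 h) or were given CpG, which activates the innate receptor TLR9, at 1 µM for 12 or 24 h. At 0, 12 and 24 h there were 4, 4 and 4 libraries for H3K9me3, 3, 3 and 4 for H3K27me3, and 4, 3 and 5 for H2AK119Ub. H3K27ac, Suz12 and Ring1B had 3 libraries at each time. The labels call the replicates biological and give no ages. The 3 IgG samples were not analysed here. The names of the lists carry the word Cast, and the lists were taken to hold peaks from reads assigned to the castaneous, that is the paternal, genome.

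H3K9me3 is the histone mark of constitutive heterochromatin, which is densest around centromeres and over repeats and silent gene clusters. H3K27me3 and H2AK119Ub are the Polycomb marks of facultative silencing. Suz12 is a subunit of the Polycomb complex that methylates H3K27, and Ring1B is the ubiquitin ligase that modifies H2AK119. H3K27ac marks active promoters and enhancers. The windows were compared with the rest of the same 19 chromosomes by the percent of their length that peaks cover, so each library supplied both sides of its own comparison.

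The windows hold 1305 protein-coding and lncRNA genes. Their gene density was 13.7 per Mb, against 13.7 per Mb in the rest, but it ran from 45.0 per Mb on chromosome 19 to 3.4 per Mb on chromosome 3. Bins of 10 kb without a peak in any list made up 27.5% of the windows and 19.6% of the rest. On chromosome 14 this share was 89.2% of the window, and the low values of that window below carry this limit. Whether bins without a peak lack the marks or could not be read was not tested.

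Promoters of 4 window genes are shown because each carried a different pattern of marks. They are RefSeq sequences of GRCm38.p6, from 250 bases before to 50 bases after the gene's start, with every CG dinucleotide in capitals.
Lifr promoter, chr15:7129322-7129621, plus strand: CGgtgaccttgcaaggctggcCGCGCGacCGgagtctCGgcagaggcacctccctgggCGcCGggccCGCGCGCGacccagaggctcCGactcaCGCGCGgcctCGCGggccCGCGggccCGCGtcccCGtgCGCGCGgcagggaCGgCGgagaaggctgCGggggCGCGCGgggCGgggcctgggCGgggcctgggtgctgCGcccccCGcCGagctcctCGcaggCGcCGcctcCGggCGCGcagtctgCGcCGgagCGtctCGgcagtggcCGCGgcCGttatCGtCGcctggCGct
Vip promoter, chr10:5638968-5639267, plus strand: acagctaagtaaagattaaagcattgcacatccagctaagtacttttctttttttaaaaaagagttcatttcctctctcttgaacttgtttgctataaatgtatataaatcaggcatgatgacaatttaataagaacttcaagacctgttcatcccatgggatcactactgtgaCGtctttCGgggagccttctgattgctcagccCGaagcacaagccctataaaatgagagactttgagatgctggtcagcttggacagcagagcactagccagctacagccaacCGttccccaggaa
Men1 promoter, chr19:6334729-6335028, plus strand: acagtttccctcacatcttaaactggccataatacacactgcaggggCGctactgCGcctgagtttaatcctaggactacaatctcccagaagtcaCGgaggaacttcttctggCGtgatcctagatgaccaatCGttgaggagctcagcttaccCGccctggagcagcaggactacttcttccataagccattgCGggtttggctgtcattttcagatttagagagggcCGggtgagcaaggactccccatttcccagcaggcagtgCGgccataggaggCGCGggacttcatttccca
Xbp1 promoter, chr11:5520391-5520690, plus strand: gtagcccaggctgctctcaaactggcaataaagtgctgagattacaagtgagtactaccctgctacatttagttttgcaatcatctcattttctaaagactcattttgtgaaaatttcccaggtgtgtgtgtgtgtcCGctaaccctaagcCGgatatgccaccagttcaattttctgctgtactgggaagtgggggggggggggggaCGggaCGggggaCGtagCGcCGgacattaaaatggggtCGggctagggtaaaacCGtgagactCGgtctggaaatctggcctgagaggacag

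Lifr has 2 promoter entries and Men1 has 3, and the first of each is printed. The printed Lifr promoter, of the receptor for leukemia inhibitory factor, holds 53 CG dinucleotides. CG reads the same on both strands, and 0.465% of 31396 autosomal promoter entries have at least as many. Peaks of H2AK119Ub overlapped it in 4 of 4, 3 of 3 and 5 of 5 libraries at 0, 12 and 24 h, and peaks of H3K27me3 in 3 of 3, 3 of 3 and 4 of 4. The other Lifr entry, at chr15:7140292-7140591, has 4 CG and was overlapped in the same numbers of libraries. The Vip promoter, of the vasoactive intestinal peptide, has 4 CG dinucleotides, and 69.1% of entries have at least as many. H3K27me3 peaks overlapped the Vip promoter in 0 of 3, 1 of 3 and 4 of 4 libraries. The Men1 promoter, of the nuclear scaffold protein menin, has 11, reached by 41.9% of entries. The other 2 Men1 entries, which overlap the printed one, have 16 each. H2AK119Ub peaks overlapped all 3 entries in 0 of 4, 3 of 3 and 5 of 5 libraries. The Xbp1 promoter, of a transcription factor of the unfolded protein response and of plasma cells, has 10, reached by 44.0% of entries. H3K27ac peaks overlapped it in 0 of 3, 3 of 3 and 3 of 3 libraries. Entries of 1 gene can overlap, and promoters of chromosome 18 were not used here.

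Across 1270 window promoter entries the marks fell on different kinds of promoter. At 24 h, 178 entries (14.02%, against 12.98% in the rest) had H3K27ac in all 3 libraries. Their median was 23 CG dinucleotides, against 5 in window entries without a peak of the mark in any library. H3K27me3 in at least 3 of 4 libraries overlapped 181 entries (14.3%, against 21.2% in the rest), with a median of 13 CG, against 7 where the mark was missing. H2AK119Ub in at least 4 of 5 libraries overlapped 154 entries (12.1%, against 16.2% in the rest), with a median of 16 CG, against 5. H3K9me3 overlapped 7 entries (0.551%, against 1.62% in the rest), with a median of 1 CG, against 8. In the rest the medians with and without the mark were 22 and 5 for H3K27ac and 11 and 6 for H3K27me3. For H2AK119Ub they were 16 and 5, and for H3K9me3 2 and 8. These are descriptions with no test.

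The cell type was checked with H3K27ac over marker genes. All 6 B cell markers had a peak, 4 of them in every library, and the summed covered percent of the 6 ranged from 189 to 453 at 0 h, from 465 to 521 at 12 h and from 378 to 514 at 24 h. Of 5 T cell markers 2 had a peak, with Cd3e, Cd4 and Cd8a at 0 in every library, and their sum was at most 35.8. Of 4 myeloid markers 2 had a peak, with Lyz2 and S100a8 at 0, and their sum was at most 32.8. Fcer2a, which encodes CD23 and lies in the window of chromosome 8, had H3K27ac peaks over 0, 46.4 and 93.1% of its region at 0 h, over 100, 100 and 78.2% at 12 h and over 100, 71.8 and 67.1% at 24 h. H3K9me3 and H3K27me3 were at 0 over Fcer2a in every library.

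List length and threshold differed between the times. H3K9me3 lists held 1772 to 8866 autosomal peaks at 0 h and 23851 to 32088 at 24 h, and peaks were kept down to a maximum of 9 to 10 (0 h) and 5 to 7 (24 h). H3K27me3 lists held 2751 to 7400 autosomal peaks at 0 h and 18129 to 23693 at 24 h. Their lowest maximum was 6.02, 6.90 and 2.93 at 0 h and 4.62, 5.35 and 3.61 at 12 h. At 24 h it was 6.0 in all 4 lists. For H3K27ac the lowest maximum ran from 4.46 to 29.9. Whether these signals share a scale over the times is unknown. The first unstimulated H3K27ac library had 1448 peaks, against 4741 and 5269 in the other 2, and the first Ring1B library at 12 h had 17885 peaks, against 25732 and 28437. Sequencing depth is unknown, and the part of list length and threshold in the differences between times was not tested beyond lists of equal length and stricter lists. In a population of cells fewer marked cells and less mark per cell cannot be told apart.

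H3K9me3 covered less of the proximal windows than of the rest in all 12 libraries, and the ratio of window to rest was lowest in unstimulated cells. In covered percent the difference was smallest there, since the means of window and rest were 1.29 and 3.06% at 0 h, 5.13 and 8.20% at 12 h, and 6.33 and 9.76% at 24 h. At 0 h the windows of the 4 libraries were covered to 0.308, 2.52, 1.60 and 0.719%, against 0.985, 5.30, 3.69 and 2.25% of the rest. At 12 h the windows ranged from 4.38 to 5.88%, against 7.49 to 9.07%. At 24 h they ranged from 5.80 to 7.33%, against 9.22 to 10.9%. The log2 ratio of window to rest was, as mean ± SD of 4 libraries, -1.40 ± 0.31 at 0 h, -0.68 ± 0.08 at 12 h and -0.63 ± 0.05 at 24 h, and every stimulated library lay above every unstimulated one. Over all libraries the ratio was below 0 (mean log2 -0.90 ± 0.40, n = 12, exact sign-flip test, adjusted p = 0.00146 over 6 marks), with a raw p of 0.000488, the smallest that 12 libraries allow. The libraries all read the same windows. The sign-flip test, for every mark, thus measures agreement among libraries and not whether other stretches of 5 Mb differ as much.

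**Figure D1:**
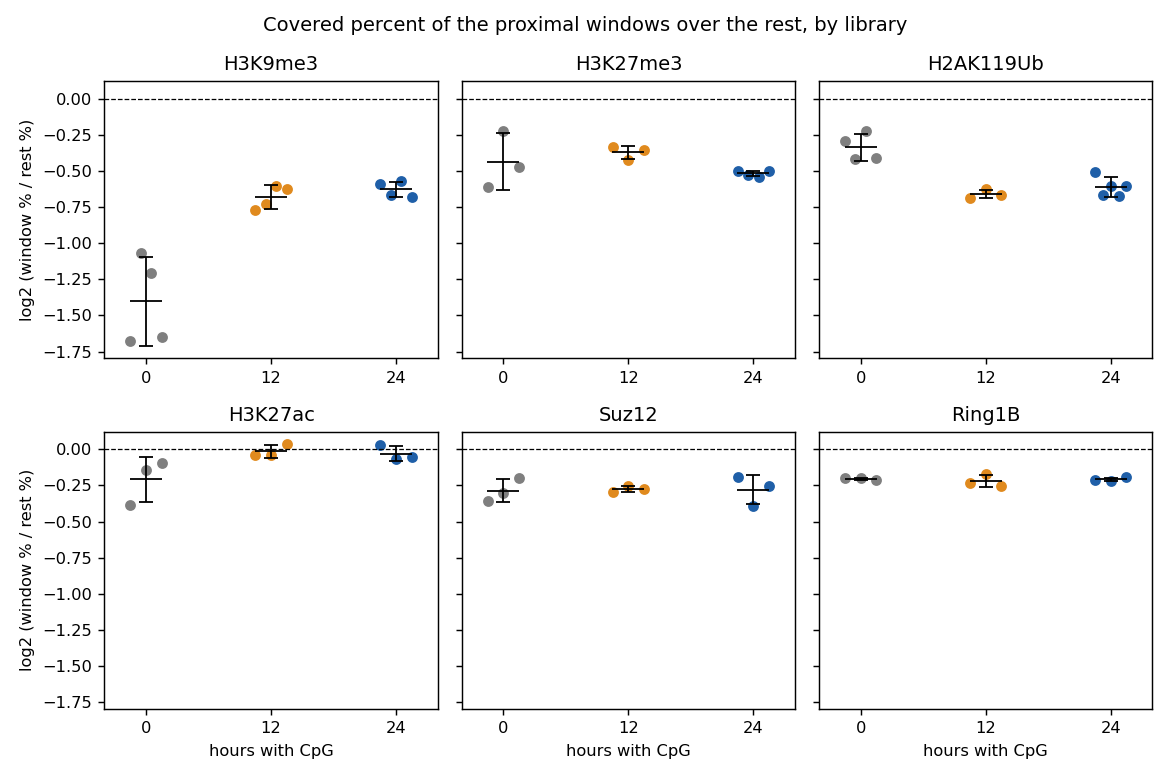
Log2 ratio of the covered percent of the proximal windows to that of the rest, against hours with CpG, 1 panel per antibody. Points are libraries and bars are the mean ± SD; H3K9me3 moves up after 0 h, with means of -1.40, -0.68 and -0.63, H2AK119Ub moves down, with means of -0.34, -0.66 and -0.61, and no other panel moves as far.

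The ratio of H3K9me3 differed among the 3 times (2-sided exact permutation test, adjusted p = 0.00571), with a difference of 0.77 between 24 and 0 h. Within the 0 h group the 2 shortest lists, of 1772 and 3719 peaks, had the lowest ratios, -1.68 and -1.65, against -1.07 in the longest. With every list cut to the same length the difference was 0.76 and the adjusted p of the exact permutation test 0.136. No pair of times passed after adjustment over 18 pairs. The smallest adjusted p was 0.103, and 4 libraries against 4 cannot give a raw p below 0.0286.

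H3K9me3 was also lower at the proximal end than at the other end of the chromosomes. Set against the last 5 Mb of each chromosome, the windows had a log2 ratio of -0.48 ± 0.35, below 0 in 12 of 12 libraries (exact sign-flip test, adjusted p = 0.00146). Within the windows H3K9me3 was lowest next to the start at 24 h, with 4.09 ± 0.41, 5.26 ± 0.70, 7.04 ± 0.96, 6.85 ± 0.52 and 8.42 ± 0.97% in the 5 steps of 1 Mb (SD, n = 4). The next 3 steps beyond the windows had 6.19, 5.67 and 5.91%, lower than the last step inside the windows.

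**Figure D2:**
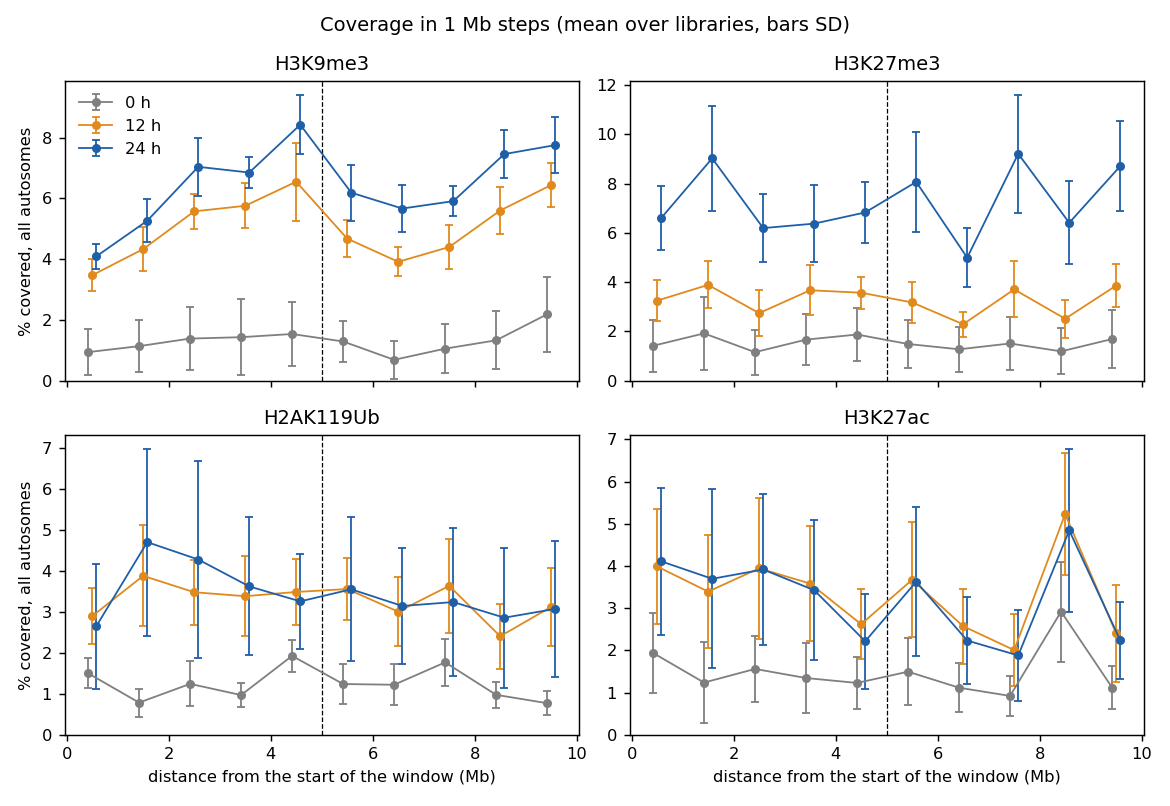
Covered percent of all autosomes in steps of 1 Mb against distance from the start of the window, with the window's end dashed at 5 Mb. Points are means and bars SD over libraries at 0, 12 and 24 h; at 24 h H3K9me3 climbs from 4.09% in the first step to 8.42% in the fifth, while H3K27ac has 4.11% in the first and 2.22% in the fifth.

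The low average hid windows rich in H3K9me3. At 24 h the window exceeded the rest on 6 of 19 chromosomes, by most on chromosome 9, with 14.3 ± 1.06% in the window and 2.49 ± 0.35% in the rest (SD, n = 4). The window of chromosome 9 ranked first among the 24 windows of 5 Mb of that chromosome, and it exceeded the rest in 12 of 12 libraries. Chromosome 8 followed, with 20.3 ± 1.82% against 12.5 ± 1.03%, higher in 11 of 12 libraries. Chromosome 5 had 13.4 ± 1.27% against 8.93 ± 0.85%, higher in all 12. The lowest windows relative to their chromosomes were those of chromosome 16 (2.32 against 14.3%), chromosome 14 (0.241 against 11.7%) and chromosome 6 (1.16 against 12.2%), each lower in 12 of 12 libraries. On chromosome 19 no library had an H3K9me3 peak in the window. The rest was uneven, since at 24 h the 5 Mb windows of chromosome 14 had a median of 2.59% and a highest value of 58.7%.

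**Figure D3:**
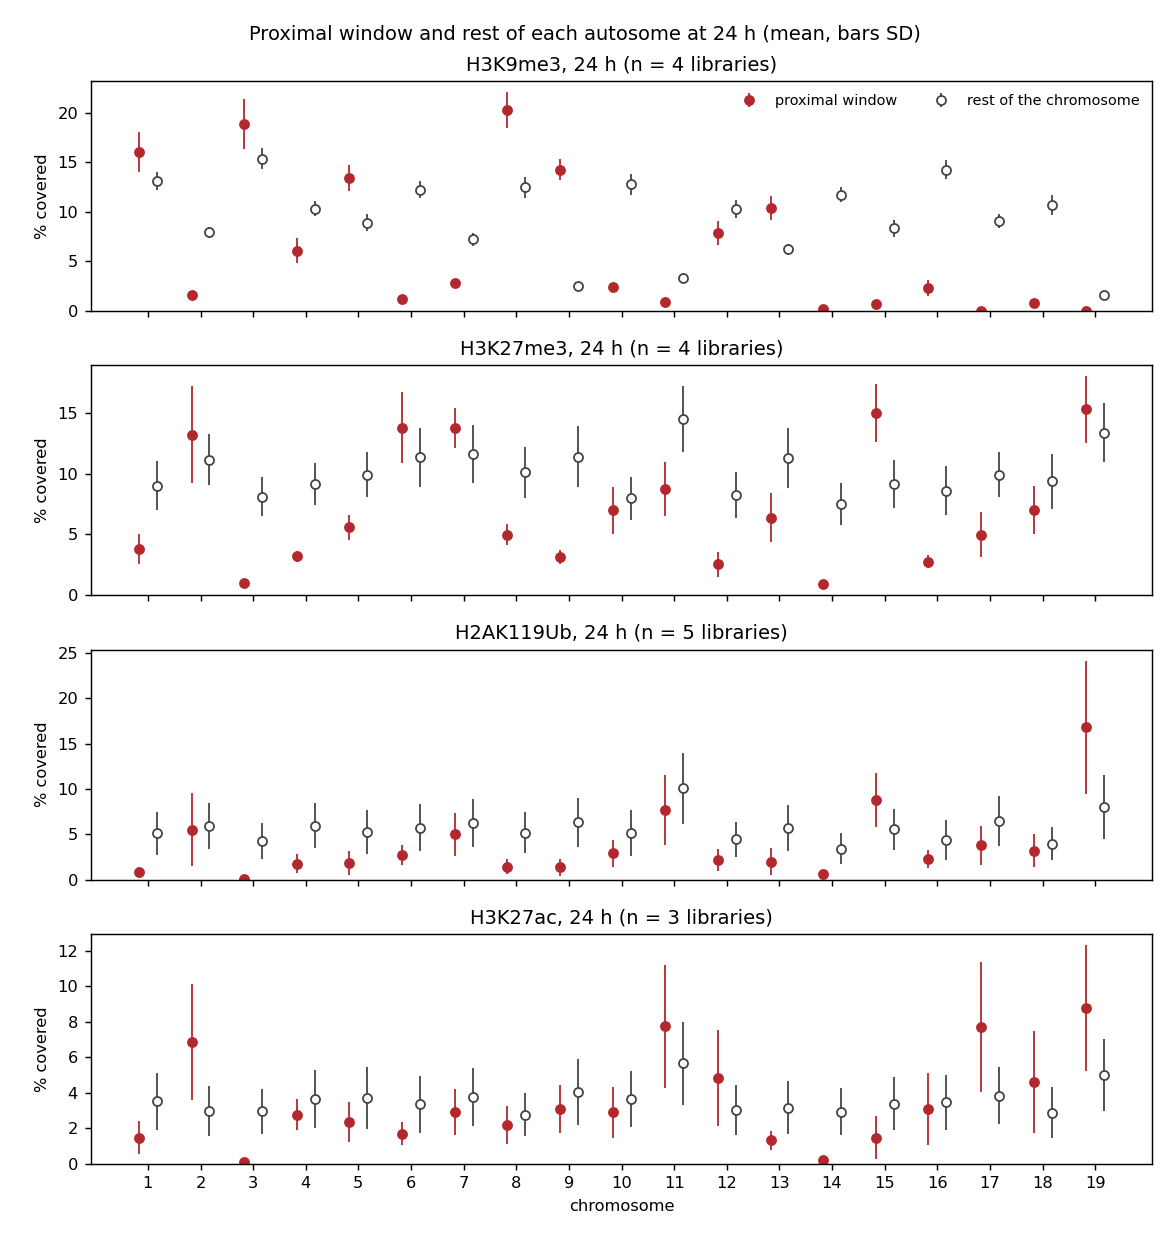
Covered percent at 24 h of the proximal window (filled, left) and of the rest of the chromosome (open, right) for each autosome and histone mark. Points are means and bars SD over 3 to 5 libraries; the highest windows are that of chromosome 8 for H3K9me3, at 20.3%, and those of chromosome 19 for H2AK119Ub, at 16.8%, and H3K27ac, at 8.79%.

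The windows of chromosomes 1, 3, 5, 8, 9 and 13, picked after their values were seen, held 82.5% of the 4220 kb that H3K9me3 covered in at least 3 of 4 libraries at 24 h, and 94.7% of the 420 kb at 0 h. These shared stretches numbered 43 at 0 h, 504 at 12 h and 720 at 24 h. At 24 h 563 of the 720 (78.2%) touched no gene, against 71.4% in the rest. The longest was chr3:4030159-4062810, 32.7 kb with no gene in it, 370 kb beyond Hnf4g, which encodes a nuclear receptor of the gut. Its covered percent over the 4 libraries was, as mean ± SD, 63.1 ± 43.6 at 0 h, then 99.1 ± 1.72 (12 h) and 97.8 ± 4.17 (24 h), and no library of H3K27me3, H2AK119Ub or H3K27ac had a peak there. Of the window bases shared at 0 h, 91.6% were also shared at 24 h, against 93.5% in the rest.

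Of the 19 windows, 17 could be tested for H3K9me3 and all 17 rose between 0 and 24 h (limma, adjusted p under 0.05). This equals the common behaviour, since 93.8% of all 421 tested 5 Mb windows rose. The median difference was 2.81 percentage points, against 5.98 over all windows. With lists of equal length 3 windows changed. Scaled to each library's autosomal coverage, 14 of 17 rose and none fell, against 63.9% higher and 15.4% lower among all windows. The scaled median was 1.55 points, against 1.04 over all windows.

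Few genes had H3K9me3 in enough libraries to be tested, 66 of 1305 in the windows and 2332 of 34328 in all. Of the 66 window genes 40 changed, a share of 60.6% against 52.3% of all tested genes. All 40 were higher at 24 h, which is 60.6% of the tested window genes, against 51.4% of all tested genes. Scaling left 25 higher (37.9%, against 31.5%). Leaving out 0 h replicate 1 or 0 h replicate 4 left 26 in each case, and lists of equal length left 2. The median difference was 15.4 points, against 22.6 over all tested genes.

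Of the 6 genes with the largest differences, 5 lie in the windows of chromosomes 1, 3, 5, 9 and 13. Xkr4, a membrane protein of the lipid scramblase family, had 0, 2.07, 2.10 and 0% at 0 h, 8.04, 9.11, 19.6 and 16.2% at 12 h, and 25.3, 15.4, 24.4 and 16.8% at 24 h. Its 0 h libraries lie below all others, which the choice by largest difference favours (difference 19.4 points, SE 3.59, limma adjusted p = 0.00412). Pkia, an inhibitor of protein kinase A on chromosome 3, was at 0 in all 4 libraries at 0 h and had 26.5, 19.5, 24.2 and 27.2% at 24 h. Zfp804b, a zinc finger gene on chromosome 5, averaged 36.8 ± 2.56% at 24 h, against 9.84 ± 7.72% at 0 h (adjusted p = 0.00528). Gria4, a glutamate receptor subunit on chromosome 9, averaged 25.1 ± 2.36% at 24 h, against 9.26 ± 9.32% at 0 h (adjusted p = 0.0362). Akr1c20, an aldo-keto reductase on chromosome 13 with close paralogs beside it, averaged 37.2 ± 9.30% against 11.8 ± 13.6% (adjusted p = 0.0468). Zfp583 on chromosome 7 averaged 22.4 ± 9.20% against 0. After scaling, the rises of Xkr4, Pkia and Zfp583 still passed and those of Zfp804b, Akr1c20 and Gria4 did not.

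H3K27me3 also covered less of the windows than of the rest, in 10 of 10 libraries, and this ratio did not pass a test of change with time. The windows were covered to 0.819, 1.14 and 2.87% at 0 h, against 1.25, 1.33 and 3.97% of the rest. At 12 h the values were 4.37, 3.24 and 2.65%, against 5.52, 4.35 and 3.39%. At 24 h the values were 6.63, 5.89, 6.26 and 9.23%, against 9.39, 8.47, 9.10 and 13.1%. The mean log2 ratio was -0.45 ± 0.11 (SD, n = 10, exact sign-flip test, adjusted p = 0.00391). The difference between 24 and 0 h was -0.08 (exact permutation test over 3 times, adjusted p = 0.427). Without 0 h replicate 2 this difference was 0.03. The same exact test over the 3 times, which does not test that pair alone, then gave an adjusted p of 0.0268. The 4 libraries at 24 h all lay below the 3 at 12 h, with means of -0.52 and -0.37. That pair did not pass (exact permutation test, adjusted p = 0.103). Against the last 5 Mb of the chromosomes the windows were lower still, at -0.93 ± 0.14.

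At 24 h the H3K27me3 window exceeded the rest on 5 of 19 chromosomes, by most on chromosomes 15, 6 and 7. In these libraries chromosome 15 had 15.0 ± 2.39% in the window and 9.15 ± 2.01% in the rest, higher in 10 of 10 libraries. Chromosome 6 had 13.8 ± 2.92% against 11.3 ± 2.40%, higher in 9 of 10, and chromosome 7 had 13.8 ± 1.66% against 11.6 ± 2.39%, also higher in 9 of 10. The other 2 were chromosome 2, with 13.2 ± 4.00% against 11.2 ± 2.12% and higher in 5 of 10, and chromosome 19, with 15.3 ± 2.75% against 13.4 ± 2.45% and higher in 7 of 10. The windows of chromosomes 9 (3.11 against 11.4%), 3 (0.971 against 8.10%) and 14 (0.916 against 7.49%) were the lowest relative to their chromosomes, each in 10 of 10 libraries. The windows of chromosomes 9 and 3 were thus rich in H3K9me3 and poor in H3K27me3. At 24 h stretches shared by H3K9me3 libraries and by H3K27me3 libraries overlapped by 0.137% of the H3K9me3 window bases, against 0.082% in the rest.

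The longest H3K27me3 stretch of the windows covers Lifr and Egflam on chromosome 15, at chr15:6985747-7273369. Egflam encodes the extracellular matrix protein pikachurin. H3K27me3 covered 65.6 ± 22.1% of these 288 kb at 0 h (n = 3), 84.4 ± 5.79% at 12 h (n = 3) and 99.6 ± 0.49% at 24 h (n = 4). H2AK119Ub covered 77.8 ± 5.71, 95.4 ± 2.51 and 81.0 ± 10.7% of it (n = 4, 3 and 5). H3K9me3 had no peak there in any library, and H3K27ac covered 1.04% or less on average. Suz12 covered 10.9 ± 4.11, 7.26 ± 3.43 and 15.2 ± 1.27% and Ring1B 13.3 ± 2.25, 14.8 ± 2.29 and 21.1 ± 1.53% (n = 3 each). The stretch was chosen by its length, so these values carry no test.

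Lifr itself had H3K27me3 over 32.6, 51.6 and 84.5% at 0 h, 84.6, 72.3 and 80.3% at 12 h, and 99.97% or more in all 4 libraries at 24 h (difference 43.8 points, limma adjusted p = 0.0283). Its H2AK119Ub was already 96.4, 100, 89.5 and 97.0% at 0 h, and 97.7, 98.0, 98.0, 72.0 and 93.8% at 24 h, a difference that did not pass (limma adjusted p = 0.673). Lifr thus carried both Polycomb marks before stimulation.

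**Figure D4:**
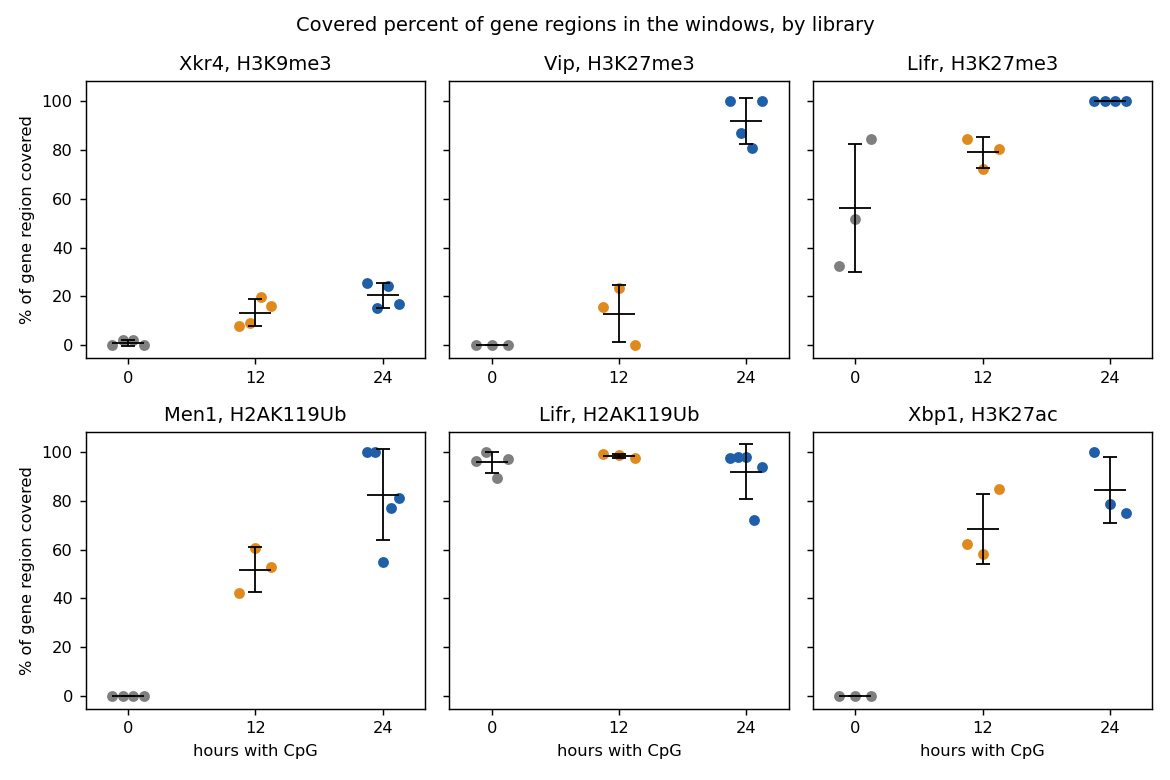
Covered percent of the gene region (gene with 2 kb on each side) against hours with CpG for 5 genes of the windows. Points are libraries and bars are the mean ± SD; Vip, Men1 and Xbp1 lie at 0 in every 0 h library, while Lifr has both Polycomb marks at 0 h.

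All 19 windows rose in H3K27me3 between 0 and 24 h (limma), as did 97.3% of the 475 windows tested. List length and lowest maximum differed between these times, as given above. With lists of equal length 11 changed. Scaled to autosomal coverage, 2 rose (chromosomes 2 and 12), against 16.6% of all windows, and 1 fell (chromosome 15), against 6.74%. Among genes 361 were tested and 205 changed, a share of 56.8%, which equals the 56.8% of all tested genes. Of these 202 were higher at 24 h (56%, against 56.5%) and 0 lower (against 0.00839%). Scaled, 43 were higher (11.9%, against 16%) and 12 lower (3.32%, against 3.75%). Without 0 h replicate 1 or 0 h replicate 2 the count of higher genes was 115 or 110, and with lists of equal length 11.

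The 6 genes with the largest H3K27me3 differences had no or little coverage at 0 h, which differences this large require on a scale that ends at 100%. Vip was at 0 in all 3 libraries at 0 h, had 15.6, 23.3 and 0% at 12 h, and 100, 87.0, 80.8 and 100% at 24 h (difference 92.0 points, SE 8.18, limma adjusted p = 0.000111). Oscar, an immune receptor of osteoclasts and myeloid cells, was at 0 in all libraries at 0 and 12 h and had 100, 73.9, 97.5 and 88.4% at 24 h (adjusted p = 0.0001). The 24 h and 0 h libraries do not overlap for either gene, which the choice by largest difference favours, so this adds no support. Ucn3, a peptide hormone of the corticotropin-releasing family, averaged 84.5 ± 18.7% at 24 h, against 0 at 0 h. Rasl10a, a Ras-like small GTPase, averaged 86.4 ± 15.8% against 0.24 ± 0.42%. Syt5, a calcium sensor of vesicle fusion, averaged 96.2 ± 7.56% against 11.9 ± 18.1%. Lgals12, a galectin, averaged 87.6 ± 24.8% against 5.40 ± 9.35%. After scaling, Vip, Oscar and Ucn3 still passed and the other 3 did not.

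H2AK119Ub covered less of the windows than of the rest in 12 of 12 libraries, and the ratio of window to rest was lower after stimulation. At 0 h the windows of the 4 libraries had 1.19, 1.84, 0.993 and 1.12%, against 1.46, 2.46, 1.16 and 1.49% of the rest. At 12 h they had 3.22, 4.39 and 2.67%, against 5.18, 6.79 and 4.23%. At 24 h they had 6.31, 3.01, 3.11, 1.57 and 4.52%, against 8.96, 4.77, 4.73, 2.49 and 6.87%. The log2 ratio averaged -0.34 ± 0.09 at 0 h, -0.66 ± 0.03 at 12 h and -0.61 ± 0.07 at 24 h, and every stimulated library lay below every unstimulated one. Both the level (mean -0.53 ± 0.16, n = 12, exact sign-flip test, adjusted p = 0.00146) and the change over the times passed (difference -0.27 between 24 and 0 h, exact permutation test, adjusted p = 0.00368).

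The change with time did not pass in a narrower window. With a window of 3 to 6 Mb the difference between 24 and 0 h was -0.09 and the adjusted p of the exact permutation test 0.302. With lists of equal length it was -0.37, with an adjusted p of 0.0565 by the same exact test.

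Chromosome 19 had the highest window for H2AK119Ub. At 24 h its window had 16.8 ± 7.34% and the rest of the chromosome 8.02 ± 3.52% (SD, n = 5), and the window exceeded the rest in 8 of 12 libraries. At 0 h the window of chromosome 19 had 1.92%. Chromosome 15 had 8.75 ± 2.99% in the window, against 5.54 ± 2.28%, higher in 12 of 12 libraries. Windows of chromosomes 9 (1.35 against 6.29%) and 1 (0.776 against 5.09%) were lower than the rest in 12 of 12 libraries, and that of chromosome 4 (1.76 against 5.94%) in 8 of 12.

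Of the 19 windows 9 rose in H2AK119Ub and none fell (limma), against 65.4% changed, 62.8% higher and 0.649% lower among all 462 windows tested. Without 0 h replicate 3 the count was 5. Scaled to autosomal coverage 5 rose, namely those of chromosomes 11, 12, 16, 17 and 19, against 32.3% of all windows, and 7 fell, those of chromosomes 1, 4, 5, 6, 10, 13 and 15, against 30.7%. The shares of higher and lower windows thus depend on the scaling. Among genes 451 were tested and 141 changed (31.3%, against 33.2% of all tested genes), 124 of them higher at 24 h (27.5%, against 31%) and 5 lower (against 0.296%). Scaled, 114 were higher (25.3%, against 28.8%) and 34 lower (7.54%, against 7.55%). Leaving out 0 h replicates 1, 2, 3 or 4 gave 72, 90, 74 or 70 changed genes, and lists of equal length gave 31, of which 17 were higher and 13 lower.

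The 6 genes with the largest H2AK119Ub differences all lie on chromosome 19, and all 6 were at 0 in the 4 libraries at 0 h. Low values at 0 h follow from the choice by difference, since the scale ends at 100%. Men1 had 42.0, 60.5 and 52.7% at 12 h and 100, 100, 54.8, 77.0 and 81.1% at 24 h (difference 82.6 points, SE 9.66, limma adjusted p = 0.000434). Nudt8, a nudix hydrolase, had 86.3, 81.3 and 61.8% at 12 h and 100, 83.4, 76.2, 77.0 and 85.8% at 24 h (adjusted p = 5.34e-05). Slc22a12, the urate transporter, averaged 88.2 ± 15.5% at 24 h (adjusted p = 0.0109). Gstp3, a glutathione transferase with near copies beside it, averaged 91.6 ± 7.78% (adjusted p = 0.00186). Znrd2 and Fam89b, neighbours whose regions share bases, averaged 92.4 ± 7.42 and 90.3 ± 21.7%. All 6 also passed after scaling.

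The 5 genes with less H2AK119Ub at 24 h, named after their values were seen, include Lilra6, an immunoglobulin-like receptor of leukocytes. Lilra6 averaged 3.48 ± 7.79% at 24 h, against 70.8 ± 20.4% at 0 h (limma adjusted p = 0.00954). Mrpl15, a mitochondrial ribosomal protein, was at 0 at 24 h, against 11.9 ± 7.58% at 0 h. Sem1, a small proteasome subunit, was at 0 at 24 h, against 6.77 ± 4.52%. The other 2 are the predicted lncRNAs Gm35194 and Gm35190.

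The overlap of the Polycomb marks was described on stretches shared by their libraries. At 0 h 57.3% of the window bases shared by H3K27me3 libraries were also shared by H2AK119Ub libraries, against 42.3% in the rest. The window of chromosome 15 alone held 172 of these 406 kb of H3K27me3, and 259 of the 868 kb of H2AK119Ub. At 24 h 18.3% of the H3K27me3 window bases were also shared by H2AK119Ub libraries, against 20.4% in the rest. Of the H2AK119Ub bases 58.9% lay in H3K27me3, against 56.5%. Of the H2AK119Ub window bases shared at 0 h 55.4% were also shared at 24 h, against 67.0% in the rest. For H3K27me3 the figures were 99.9% and 99.8%. Of the Suz12 window bases shared at 24 h 53.6% lay in H3K27me3, against 78.4% in the rest.

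Suz12 and Ring1B gave smaller ratios with little spread. Their lists hold a fixed top share of signal blocks, so a covered percent of theirs is not a measure of occupancy and is read here relative to the whole list. The window covered 1.79 to 2.49% in the 9 Suz12 libraries, against 2.04 to 3.14% of the rest, a mean log2 ratio of -0.28 ± 0.07. In the 9 Ring1B libraries it covered 1.98 to 3.61%, against 2.36 to 4.23%, a mean of -0.21 ± 0.02. All 9 libraries of each lay below 0 (exact sign-flip test, adjusted p = 0.00469 for each). The differences between 24 and 0 h were 0.01 and -0.004, with adjusted p of 0.961 and 0.96 in the exact permutation test.

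The unscaled percent of the Suz12 lists was lower at 24 than at 0 h in 2 of the 19 windows, those of chromosomes 19 and 7, against 4.8% lower and 7.93% changed among all windows (limma). Scaled to the list's autosomal coverage the window of chromosome 19 was still lower, while that of chromosome 7 did not pass (adjusted p = 0.080). On chromosome 19 it averaged 3.37% at 24 h, against 5.13% at 0 h (adjusted p = 0.0135), and on chromosome 7 2.68%, against 4.01% (adjusted p = 0.0292). The scaled call of chromosome 19 stood beside 0.418% of all windows lower, and 1 window, that of chromosome 15, was higher when scaled, against 0.209%. The count of changed Suz12 windows was 0, 6 and 1 without 12 h replicates 1, 2 and 3, and 1 without 24 h replicate 1 or 24 h replicate 3. No Ring1B window changed by limma (0 of 19, and 0 of all windows), and 7 changed without 12 h replicate 3. Under an unadjusted limma p of 0.05 there were 2 of the 19, against 24 of all 479. No window gene changed for Suz12 or Ring1B by limma, against 0 and 0.085% of all genes. An unadjusted limma p under 0.05 was found for 60 of 646 tested window genes for Suz12, against 1582 of all 18049. For Ring1B it was found for 61 of 672, against 1540 of all 17641.

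The Suz12 and Ring1B genes with the smallest p did not pass and are given as values. On the unscaled percent, Casp4, an inflammatory caspase, had Suz12 over 8.49 ± 1.34% at 24 h, against 0 at 0 h (limma adjusted p = 0.0589). Nudt5, a nudix hydrolase, had 0 at 24 h, against 6.24 ± 0.92% at 0 h. Ppp2r5b, a phosphatase subunit, had 0 at 24 h, against 13.8 ± 2.73% at 0 h. Tmem238 had Ring1B over 30.3 ± 4.02% at 24 h, against 0.22 ± 0.37% at 0 h (limma adjusted p = 0.0541). Peg3, an imprinted zinc finger gene transcribed from the paternal allele, had 8.96 ± 0.31% at 24 h, against 0, and Gp6, the platelet collagen receptor, had 6.38 ± 0.87%, against 0. After scaling, Tmem238, Peg3 and Gp6 passed (limma adjusted p = 0.0449 for each), among 0.323% of all genes that did.

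H3K27ac covered almost the same percent of the windows as of the rest. The windows had 0.524, 1.84 and 2.03% at 0 h, against 0.685, 2.03 and 2.16% of the rest. They had 3.02, 4.99 and 2.51% at 12 h, against 3.10, 5.13 and 2.45%. They had 5.33, 2.05 and 3.03% at 24 h, against 5.23, 2.15 and 3.14%. The mean log2 ratio was -0.08 ± 0.13, below 0 in 7 of 9 libraries (exact sign-flip test, adjusted p = 0.0273). The 3 libraries at 0 h lay below the 6 stimulated ones, with a difference of 0.18 between 24 and 0 h (exact permutation test over 3 times, adjusted p = 0.0357).

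Both H3K27ac results missed the threshold under several changes. Without 0 h replicate 1, the shortest list, the level was -0.05 and the difference 0.09, with adjusted p of 0.0547 and 0.22 in the exact tests. Without 0 h replicate 2, 0 h replicate 3 or 24 h replicate 2 the level was -0.08, -0.08 or -0.09, with an adjusted p of 0.0547 by the exact test each time. The time difference also missed the threshold without any single library at 12 or 24 h (0.15 to 0.20, exact permutation adjusted p of 0.1 to 0.179). Counting only 10 kb bins that hold a peak in some list turned the level to 0.06.

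The windows with most acetylation relative to their chromosomes were those of chromosomes 2, 17 and 19. At 24 h chromosome 2 had 6.86 ± 3.26% in the window, against 2.97 ± 1.42% in the rest (SD, n = 3), chromosome 17 had 7.71 ± 3.64%, against 3.84 ± 1.63%, and chromosome 19 had 8.79 ± 3.54%, against 5.00 ± 2.01%. The window exceeded the rest in 9 of 9 libraries on chromosomes 2 and 17 and in 8 of 9 on chromosome 19. The windows of chromosomes 3 (0.093 against 2.96%), 14 (0.186 against 2.93%) and 1 (1.46 against 3.51%) were lower in 9 of 9. At 24 h 81.5 ± 0.63% of the acetylated window bases lay in genes, against 77.2 ± 0.84% in the rest, while for H3K9me3 the share was 19.5 ± 0.76% against 26.6 ± 0.25%.

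The longest acetylated stretches lay over named genes. At 12 h a stretch of 61.6 kb, chr4:3677335-3738897, overlapped Lyn, the Src-family kinase of B cell receptor signalling. At 24 h the longest was chr11:6557173-6594111, 36.9 kb in Ccm2, a scaffold protein of MAP kinase signalling, and a stretch of 22.1 kb lay in Ezr, which encodes the membrane linker ezrin. The Ccm2 stretch was covered to 78.2 ± 30.3% at 0 h, 93.2 ± 6.24% at 12 h and 100% at 24 h (n = 3 each), with no peak of H3K9me3 or H3K27me3 in any library. Suz12 covered 18.5 ± 6.63, 3.65 ± 3.62 and 6.08 ± 5.71% of it at 0, 12 and 24 h (n = 3 each). Ring1B covered 17.0 ± 11.1, 7.62 ± 10.0 and 25.6 ± 9.09% (n = 3 each). H2AK119Ub had no peak there at 0 or 12 h and covered 4.73 ± 6.59% at 24 h (n = 5). Over the gene region of Lyn the covered percent was 43.0, 68.2 and 70.4% at 0 h, 84.5, 90.4 and 83.0% at 12 h, and 89.5, 65.8 and 82.2% at 24 h, which overlap (limma adjusted p = 0.381).

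No window changed in H3K27ac by limma (0 of 19, and 0 of all 463 windows). Under an unadjusted limma p of 0.05 there were 5 of the 19, against 72 of all 463. Scaled to autosomal coverage 1 rose, that of chromosome 5, against 1.73% of all windows. Among genes 404 were tested and 6 rose (1.49%, against 1.46% changed and 1.45% higher among all tested genes). Without 0 h replicates 1, 2 or 3, 12 h replicate 1 or 24 h replicate 3 this count was 0. Without 12 h replicate 2, 24 h replicate 1 or 24 h replicate 2 it was 29, 11 or 16. Scaled, the count was 0, as over all genes.

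Xbp1 was at 0 in the 3 libraries at 0 h and had H3K27ac over 62.4, 58.1 and 84.9% at 12 h and 100, 78.5 and 74.8% at 24 h (difference 84.4 points, SE 12.1, limma adjusted p = 0.0290). Uqcr10, a subunit of respiratory complex III, was at 0 at 0 h and had 55.5, 53.5 and 37.8% at 12 h and 100, 63.3 and 69.6% at 24 h (adjusted p = 0.0383). Stimulated and unstimulated libraries do not overlap for either gene, which the choice by largest difference favours, so this adds no support. Ppia, the prolyl isomerase cyclophilin A, averaged 100% at 24 h, against 0 at 0 h, and Rps20, a ribosomal protein, averaged 48.1 ± 6.39%, against 0. Both genes have processed copies elsewhere in the genome, so reads may be shared with them. The remaining 2 are the predicted lncRNAs Gm35413 and Gm42067.

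Of 29 genes on a developmental and neural list, 26 lie in the windows. For H3K27me3 17 of them could be tested and 9 rose, against 56.5% of all tested genes, with a median difference of 23.0 points, against 28.9 over all tested genes. Gdnf, a neurotrophic factor, had 100% at 24 h, against 33.4 ± 33.3% at 0 h (limma adjusted p = 0.00991), and Penk, the enkephalin precursor, had 59.9 ± 8.42%, against 0 (adjusted p = 0.000557). For H2AK119Ub 13 could be tested and 7 rose, against 31% of all tested genes, with a median of 33.5 points, against 18.003 over all tested genes. Dlx6, a homeobox gene of limb and forebrain, had 73.3 ± 13.3% at 24 h, against 0 (adjusted p = 0.000171), and Sox17, an endoderm regulator, had 69.3 ± 25.2%, against 0 (adjusted p = 0.00493). Dlx5, next to Dlx6, already had H3K27me3 over 45.8, 69.0 and 74.9% at 0 h and reached 100% in all 4 libraries at 24 h, and Sox17 had 77.3 ± 20.5% at 0 h. Scaled, 1 of the 17 was higher and 1 lower in H3K27me3, against 16% and 3.75% of all tested genes. In H2AK119Ub 7 of the 13 were higher and 2 lower when scaled, against 28.8% and 7.55%. H3K9me3 was testable in 4 of the list and rose in 3, against 51.4% of all tested genes, among them Rbfox1, a neuronal splicing factor (5.58 ± 2.00% at 24 h, against 0, adjusted p = 0.00336).

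Of 28 B cell and immune genes, 26 lie in the windows, and none could be tested for H3K9me3, whose mean over them was 0 at each time. Over all genes 2332 of 34328 could be tested for this mark. For H3K27ac 19 could be tested and 1, Xbp1, rose, against 1.45% of all tested genes. For H2AK119Ub 12 could be tested, 6 changed and 4 were higher at 24 h, namely Rela, Sipa1, Batf2 and Lif, against 33.2% changed and 31% higher among all tested genes. Sipa1, a Rap GTPase regulator, had H2AK119Ub over 41.4 ± 8.90% at 24 h, against 0 (limma adjusted p = 0.00653), and Rela, an NF-kB subunit, had 22.4 ± 3.66%, against 0 (adjusted p = 0.0005). Osmr and Fyb changed with a peak at 12 h, since Osmr averaged 10.3, 45.6 and 21.2% and Fyb, an adaptor protein, 8.35, 33.9 and 13.5% at 0, 12 and 24 h. For H3K27me3 7 could be tested and 4 rose, namely Lif, Batf2, Osmr and Lifr, against 56.5% of all tested genes. Lif, the ligand of Lifr, had H3K27me3 over 28.5 ± 9.83% at 24 h, against 0 (adjusted p = 0.0154). Scaled, 0 of the 7 passed in H3K27me3, against 16% higher and 3.75% lower among all tested genes. In H2AK119Ub 4 of the 12 were higher and 2 lower when scaled, against 28.8% and 7.55%.

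All 12 chromatin and replication genes lie in the windows, and 3 could be tested for H2AK119Ub, of which Men1 and Dnmt3a rose, against 31% of all tested genes. Dnmt3a, a de novo DNA methyltransferase, averaged 14.6 ± 9.49% at 24 h, against 0 (limma adjusted p = 0.0438). For H3K27ac 9 could be tested and 0 passed. Over all 12 the mean covered percent was 5.83 at 0 h, 20.3 at 12 h and 23.9 at 24 h. Of 11 imprinted genes 7 could be tested for H3K27me3, and Asb4, Peg3 and Calcr rose, against 56.5% of all tested genes. Asb4, an ankyrin repeat protein with a SOCS box, averaged 70.2 ± 5.48% at 24 h, against 30.2 ± 19.2% at 0 h (adjusted p = 0.0229). None of the 3 passed after scaling, against 16% higher and 3.75% lower among all tested genes. Neat1, the long noncoding RNA of paraspeckles, rose in H2AK119Ub to 34.5 ± 6.62% at 24 h, against 0 (adjusted p = 0.0113), while its H3K27ac was 44.2, 36.8 and 44.3% at 24 h and 36.8, 35.6 and 28.4% at 0 h.

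Repeated gene families were described by the start of their symbols. Among 23 vomeronasal receptor genes 1 could be tested for H3K9me3 and did not pass, 1 could be tested for H3K27me3 and rose, and H2AK119Ub and H3K27ac were at 0 over all 23. Among 10 olfactory receptor genes 1 could be tested for H3K9me3 and it did not pass. Among 25 zinc finger genes 3 could be tested for H3K9me3 and all 3 rose, namely Zfp667, Zfp804b and Zfp583, against 51.4% of all tested genes. Zfp667 averaged 15.2 ± 7.62% at 24 h, against 0 (limma adjusted p = 0.00304). For H3K27me3 9 of the zinc finger genes could be tested and 2, Zfp358 and Zfp418, rose, against 56.5% of all tested genes. Receptor genes of these families have near-identical copies, so how reads were shared among copies is uncertain.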

How the data were processed

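CUT&RUN, in which an antibody guides a nuclease to its target, was read from 61 deposited peak lists, called per library. The lists give an interval with its total and maximum signal, as the authors deposited them; these signal values served only to rank peaks. Per the submitters' processing notes the tools were Trimmomatic 0.32, Bowtie2 2.3.4.1, Picard and deepTools 3.5.1, and per the labels the build was mm10. By the deposited names the lists are SEACR calls; neither the SEACR version, the rule that assigns reads to a genome, nor the depth is given in the sources used here. Suz12 and Ring1B lists keep a fixed top share of signal blocks. No interval for counting error could be given without depth.

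Peaks of a library were merged, and the covered percent of windows and rest was computed, with 221 Y peaks left out. Log2 ratios were tested over libraries by exact sign-flip (level) and exact permutation (3 times, pairs of times), 2-sided, with Benjamini-Hochberg adjustment. A permutation p or threshold given beside a difference in log2 ratio between 24 and 0 h is that over the 3 times. Gene regions (RefSeq GRCm38.p6, 2 kb flanks) and all 479 windows of 5 Mb were tested in limma 3.58.1 (R 4.3.3; moderated F over the 3 times, trend and robust) where at least 3 libraries of the mark had a peak, with adjustment over all features. Higher or lower needs an adjusted p and a 24 against 0 h contrast p under 0.05. Scaled values divide by a library's autosomal coverage. A stretch is called shared where at least 3 libraries of a mark and time cover it (4 for H2AK119Ub at 24 h). Python 3.11.15, numpy 2.4.6, pandas 2.3.3 and scipy 1.17.1 were used.

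On simulated data the gene test recovered 53% of differences of 30 points for H3K9me3 (2332 genes), 35% for H3K27me3 (11914), 26% for H2AK119Ub (13845), 25% for H3K27ac (9342), 37% for Suz12 (18049) and 40% for Ring1B (17641). Named genes are the 6 with the largest called difference per mark, without predicted models, or the 3 with the smallest p where none passed, and listed genes with the smallest p. The members and lists were chosen with earlier results of these data known. Alternatives were stricter lists, lists of equal length, other windows, scaling, a replicate block, and leaving out each library.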

Additional observations from a re-analysis of the deposited data

How the results depend on the processing

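The log2 ratio of window to rest, over all libraries, stayed below 0 and past the threshold for H3K9me3, H3K27me3, H2AK119Ub, Suz12 and Ring1B under every alternative tried. That of H3K27ac missed it with stricter lists (-0.0484) and with the last 5 Mb left out of the rest (-0.0723), and was positive with a window of 3 to 6 Mb (0.0457) and over 10 kb bins that hold a peak (0.064).

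The difference in this ratio between 24 and 0 h missed the threshold with lists of equal length for H3K9me3 (0.758), H2AK119Ub (-0.367) and H3K27ac (0.117), with a window of 3 to 6 Mb for H2AK119Ub (-0.0856) and, in a choice made after seeing the data, without chromosomes 7, 14 and 19 for H3K27ac (0.067). It changed sign for H3K27ac with a window of 3 to 13 Mb (-0.00777). Differences that did not pass in the report's own setting changed sign as follows. H3K27me3 had 0.0641 with lists of equal length, 0.128 and 0.0559 with windows of 3 to 6 and 3 to 13 Mb, and 0.106 without the chromosome with most covered window bases. Suz12 had -0.0455 with stricter lists and -0.0046 with a window of 3 to 6 Mb, and Ring1B had 0.0165 with that window and 0.0048 with the last 5 Mb left out of the rest. The causes were not tested.

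With lists of equal length, changed windows numbered 3 for H3K9me3, 11 for H3K27me3 and 0 for Suz12, and changed genes 2 for H3K9me3, 12 for H3K27me3, 31 for H2AK119Ub, 3 for H3K27ac and 4 for Ring1B. With stricter lists Suz12 had 0 changed windows, and changed genes numbered 11 for H3K9me3, 90 for H2AK119Ub, 1 for H3K27ac, 9 for Suz12 and 14 for Ring1B. Scaled, changed windows numbered 3 for H3K27me3 and 1 for H3K27ac, and changed genes 25 for H3K9me3, 55 for H3K27me3, 0 for H3K27ac and 4 for Ring1B.

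Of 58 same-numbered pairs of libraries 17 had a correlation of deviations over 0.1 (range -0.523 to 0.46). With so few libraries in a group this cannot show whether a shared number marks a shared animal or batch. With a replicate block the differences between 24 and 0 h were 0.774 for H3K9me3, -0.281 for H2AK119Ub and 0.177 for H3K27ac and did not pass. With the block in limma, changed genes numbered 108 for H3K27me3, 63 for H2AK119Ub and 0 for H3K27ac, and changed Suz12 windows 0. With the block and scaling, changed windows numbered 1 for H3K27me3, 0 for Suz12 and 1 for Ring1B, and changed genes 22 for H3K9me3, 20 for H3K27me3 and 0 for H3K27ac.

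Leaving out each library in turn, the ratio over all libraries ranged from -0.0996 to -0.0469 for H3K27ac. The difference between 24 and 0 h ranged from -0.169 to 0.0252 for H3K27me3, from 0.0877 to 0.235 for H3K27ac, from -0.0365 to 0.062 for Suz12 and from -0.0107 to 0.00156 for Ring1B. Changed windows ranged from 5 to 13 for H2AK119Ub, 0 to 6 for Suz12 and 0 to 7 for Ring1B, and changed genes from 26 to 41 for H3K9me3, 112 to 239 for H3K27me3, 70 to 211 for H2AK119Ub and 0 to 29 for H3K27ac. With 3 libraries at a time, the remaining 2 were assumed to vary like the others in the limma fits. Depth is unknown, so what a longer list would hold in the windows cannot be said.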
